A study of Mus musculus with 8 samples.

Results

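The genes described here encode 8 surface proteins through which antigen-presenting cells costimulate T cells: Cd40, Cd80, Cd86, Cd83, Icosl, Tnfsf4, Tnfsf9 and Cd70. They were chosen by name, and each matched 1 Ensembl gene among the 55450 genes of the first deposited expression table and 1 among the 24848 genes of the second. All 8 were measured, and 7 of the 8 passed the filter for testing, which asked for at least 1 FPKM in at least 3 of 6 libraries. FPKM are fragment counts corrected for transcript length and sequencing depth, so that levels of different genes can be set side by side.

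A T cell that meets its antigen needs a second signal from the presenting cell before it expands and differentiates. Members of the B7 family (CD80, CD86 and the ICOS ligand) give this signal through CD28 and ICOS, and ligands of the tumour necrosis factor family (OX40 ligand, 4-1BB ligand and CD70) prolong it through OX40, 4-1BB and CD27. CD40 works the other way round: it is a receptor on the presenting cell that receives CD40 ligand from the T cell and raises costimulatory molecules in turn. CD83 keeps MHC class II and CD86 at the cell surface by opposing the ubiquitin ligase MARCH1. In dendritic cells, most of these proteins rise on maturation.

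The cells were dendritic cells induced in culture, per the labels, from bone marrow of a mouse model of dry eye in Sjögren's syndrome, an autoimmune disease of the exocrine glands. Vehicle samples received phosphate-buffered saline and the others received the recombinant protein pair S100A8/A9, which binds calcium and is released by inflamed myeloid cells, with 4 libraries in each group. Both groups share the disease model, and the labels name no strain, genotype, age, dose or duration. The labels do not say whether replicates came from separate animals or cultures, so the p-values measure only the spread between these libraries, which may be technical. Replicates 1 to 3 of both groups share 1 table and replicate 4 of both groups comes from a second, separately made table. Tests were therefore run on replicates 1 to 3, and replicate 4 values are given beside them. Setting S100A8/A9 against vehicle asks, for these genes, whether the protein pair changed the transcripts of the costimulatory machinery.

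Replicate 4 libraries had about 31900000 reads with vehicle and 33400000 with S100A8/A9, estimated from the low values. The same estimate gave 22800000 to 25700000 reads for replicates 1 to 3. There, 3.70% to 4.13% of low values came out as whole reads, so the depth of those libraries is not established. As for the labelled cell type, Itgax, H2-Ab1 and Cd74 were high (Itgax at 47.2 to 66.9 FPKM in replicates 1 to 3), 8 of 8 markers of mature migratory dendritic cells passed the filter, and 4 of 8 dendritic cell markers (Flt3, Clec9a, Xcr1 and Cd209a) stayed under 1 FPKM in all 6 libraries. The sample titles carry an abbreviation usually read as macrophages, and 9 of 9 macrophage markers also passed. In replicates 1 to 3, Cd68 was at 305 to 474 FPKM and Csf1r at 109 to 213 FPKM, both above Itgax. The lowest macrophage marker by mean, Fcgr1, was at 5.61 to 15.4 FPKM in the same libraries. Of cells that carry some of the same costimulatory genes, B cells had 4 of 6 markers under 1 FPKM in all 6 libraries, with Ighm at 3.98 to 5.45 FPKM. Of 4 monocyte markers, 3 passed, among them Ly6c2 at 62.2 to 186 FPKM in replicates 1 to 3.

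Cd40 was the 1 member of the 7 tested whose groups did not overlap in replicates 1 to 3. Its FPKM were 4.52, 4.04 and 4.41 in vehicle libraries and 5.58, 4.83 and 6.0 after S100A8/A9. Every S100A8/A9 library lay above every vehicle library, and the within-number ratios were 1.23, 1.2 and 1.36. The mean went from 4.32 ± 0.249 to 5.47 ± 0.590 FPKM (SD, n = 3 each), a log2 difference of 0.28 ± 0.11 (SE) with a 95% interval from 0.022 to 0.53. This difference did not pass the adjusted threshold over all 11387 genes tested (adjusted p = 0.9998 in limma, and 0.411 with the replicate number as a block). It lay at or above that of 95.3% of tested genes, and 4.71% of tested genes were higher without overlap between groups. Another 1.94% were lower without overlap, and 0 members. Cd40 (ENSMUSG00000017652) is a forward-strand gene of chromosome 2, at 165055627 to 165072948 in mm10.

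Replicate 4 did not show the higher Cd40 level. Cd40 was at 3.10 FPKM in the vehicle library and 2.86 FPKM after S100A8/A9, from 337 and 325 reads. The ratio was 0.921, with an exact binomial 95% interval from 0.788 to 1.08 that covers counting error only. Its upper bound lay below the lowest ratio of replicates 1 to 3. Those ratios carry counting error too, for which no interval was computed, so this does not show a difference beyond counting error. Among the 530 genes that were higher without overlap in replicates 1 to 3 and listed in both tables, 40.8% were lower with S100A8/A9 in replicate 4, against 45.0% of all tested genes in both tables. With replicate 4 included, the log2 difference of Cd40 was 0.19 (adjusted p = 0.665 in limma with all 8 libraries and the block). Whether the 2 tables differ in Cd40 response was not tested.

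Summed levels of 3 marker lists, named for this direction, were, like Cd40, higher with S100A8/A9 within each of replicates 1 to 3. Sums of the other marker lists were not, and of single tested genes 19.4% were higher in all 3 pairs. The part of the 3 lists in the Cd40 result was not tested. Library totals also had the direction of Cd40 in all 4 numbers. Summed over all listed genes, FPKM in replicates 1 to 3 were 299751, 282921 and 292065 with vehicle. With S100A8/A9 they were 303660, 283275 and 300289. In replicate 4 the totals were 344166 with vehicle and 331268 with S100A8/A9. The list sums were not scaled to these totals, and the part of the totals in them was not tested. The 8 mature migratory dendritic cell markers summed to 942, 830 and 1264 FPKM in vehicle libraries and 947, 860 and 1426 FPKM after S100A8/A9, and to 1248 and 1191 FPKM in replicate 4, which was lower with S100A8/A9, as for Cd40. Ccl22 made up most of that sum, and 2 of the 8 genes were higher in all 3 pairs. The 8 dendritic cell markers summed to 4531, 3206 and 2918 FPKM in vehicle libraries and 4560, 3252 and 3165 FPKM after S100A8/A9. They summed to 1457 and 1404 FPKM in replicate 4, again with the direction of Cd40 and of the library totals in all 4 numbers. Cd74 made up most of that sum, at 3790, 2752 and 2530 FPKM with vehicle and 3823, 2826 and 2779 FPKM with S100A8/A9. Of the 4 tested genes of that list, 2 (Cd74 and Zbtb46) were higher in all 3 pairs. H2-Ab1 was at 670, 402 and 336 FPKM with vehicle and 671, 375 and 327 FPKM with S100A8/A9. The 4 plasmacytoid dendritic cell genes were the 1 list without overlap between groups in replicates 1 to 3, at 41.4 to 53.7 FPKM with vehicle and 58.5 to 79.8 FPKM with S100A8/A9, but in replicate 4 they were higher with S100A8/A9 (57.7 and 68.5 FPKM), where Cd40 was lower. Siglech, which defines that cell type, was at 0 in all 6 libraries, and Bst2, an interferon-inducible antiviral gene, made up most of the sum. Summed macrophage markers were at 936, 641 and 489 FPKM with vehicle and 988, 641 and 530 FPKM with S100A8/A9, and at 1056 and 1088 FPKM in replicate 4. Summed monocyte markers were at 82.7, 172 and 200 FPKM with vehicle and 131, 212 and 128 FPKM with S100A8/A9. In bulk RNA, a change in the number of cells of a type and a change in RNA per cell cannot be told apart.

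**Figure D1:**
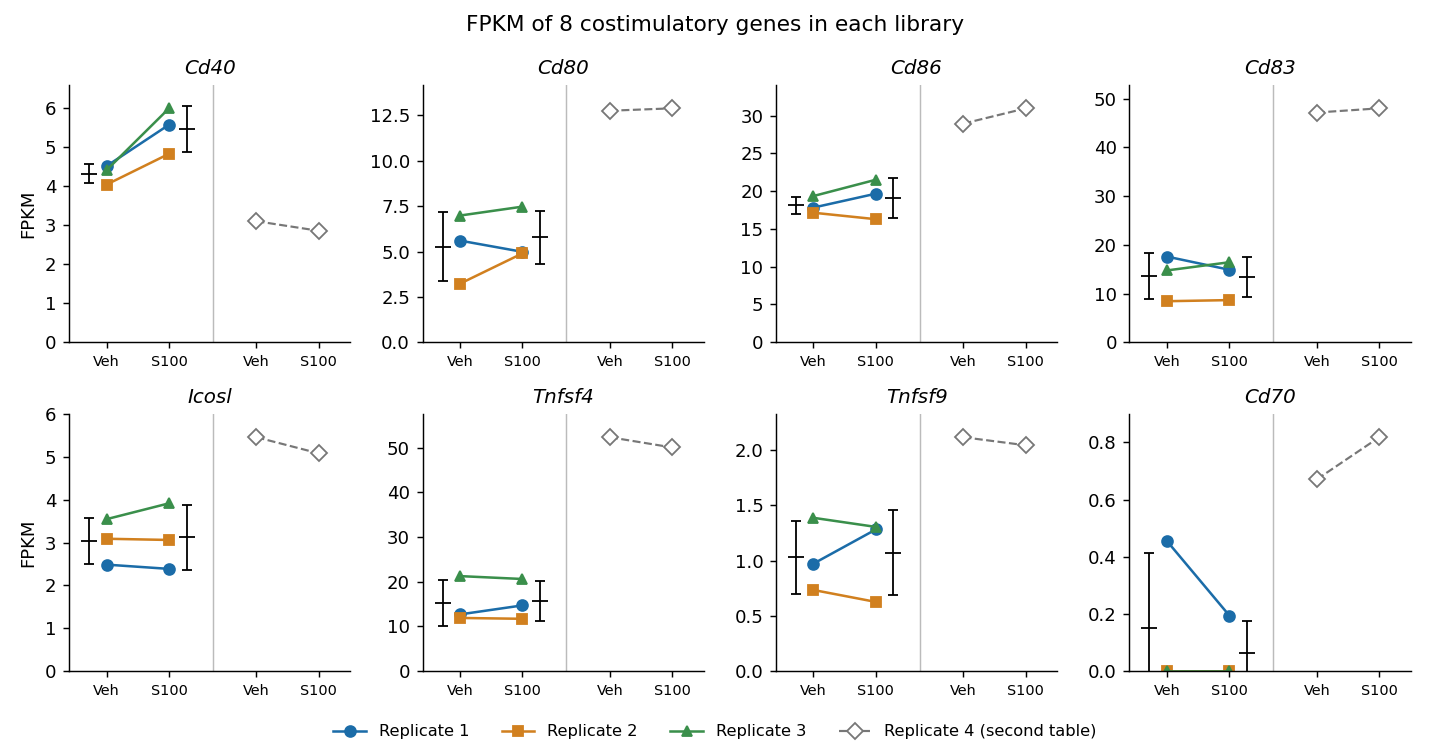
FPKM of each member in each library (y axes start at 0), with lines joining vehicle (Veh) and S100A8/A9 (S100) libraries of the same replicate number, and black bars giving the mean and SD of replicates 1 to 3. Cd40 has a mean of 4.32 FPKM in vehicle libraries and 5.47 FPKM after S100A8/A9 in replicates 1 to 3 and is lower with S100A8/A9 in replicate 4, whose separately made table (open diamonds) is plotted to the right of the grey line.

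The B7 ligands of CD28, Cd80 and Cd86, did not pass the test. Cd86 was the most abundant member by mean in replicates 1 to 3, at 17.8, 17.1 and 19.4 FPKM in vehicle libraries and 19.7, 16.3 and 21.5 FPKM after S100A8/A9. The groups overlapped, and S100A8/A9 libraries were higher in replicates 1 and 3 and lower in replicate 2. Its log2 difference was 0.07 with a 95% interval from -0.22 to 0.36, that is, from 0.861-fold to 1.28-fold (adjusted p = 0.9998 in limma, and 0.886 with the block). With the block that interval was -0.11 to 0.25 on the log2 scale. In replicate 4, Cd86 was at 28.9 FPKM in the vehicle library and 31.0 FPKM after S100A8/A9, a ratio of 1.07 (95% counting interval from 1.02 to 1.12, from 3379 and 3787 reads), which is within the range of ratios of replicates 1 to 3 (0.95 to 1.11). Cd86 (ENSMUSG00000022901) lies on the reverse strand of chromosome 16 from 36603869 to 36666081 in mm10.

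Cd80 was lower and more scattered. It was at 5.60, 3.23 and 6.98 FPKM in vehicle libraries and at 4.98, 4.90 and 7.48 FPKM after S100A8/A9. Replicate 2 carried the largest ratio, 1.52, while replicates 1 and 3 gave 0.889 and 1.07. The log2 difference of 0.14 had a 95% interval from -0.45 to 0.73 (adjusted p = 0.9998 in limma, and 0.866 with the block). With the block that interval was -0.17 to 0.45. Without vehicle replicate 2 the group-only difference was -0.12, with S100A8/A9 replicate 2 left unpaired. In replicate 4 the 2 values were 12.8 and 12.9 FPKM. Cd80 (ENSMUSG00000075122) is a forward-strand gene of chromosome 16, the chromosome of Cd86, at 38455561 to 38496335.

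Cd83, the protector of surface CD86 and MHC class II, was at 17.6, 8.43 and 14.8 FPKM in vehicle libraries and 14.9, 8.66 and 16.4 FPKM after S100A8/A9. Both replicate 2 libraries were low, and the ratios of 0.846, 1.03 and 1.11 fell on both sides of 1. Its log2 difference was -0.02, with a 95% interval from -0.72 to 0.69 (adjusted p = 0.9998 in limma, and 0.989 with the block). With the block that interval was -0.23 to 0.20. The replicate 4 values were 47.2 and 48.0 FPKM, a ratio of 1.02.

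The gene pair on the other side of CD83's known mechanism, the ubiquitin ligases March1 (now Marchf1) and March8 (now Marchf8), had 2 of 2 members tested and 0 called in either direction. March1 was at 12, 10.4 and 10.4 FPKM in vehicle libraries and 14.1, 11.6 and 9.09 FPKM after S100A8/A9 (adjusted p = 0.929 in the blocked limma fit). March8 was at 10.5 ± 1.43 and 11 ± 0.712 FPKM (SD, n = 3 each).

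Icosl, whose protein binds ICOS and supports follicular helper T cells, was low and steady within each number. It was at 2.49, 3.09 and 3.55 FPKM in vehicle libraries and at 2.39, 3.06 and 3.92 FPKM after S100A8/A9. The ratios were 0.96, 0.991 and 1.1, and the log2 difference of 0.02 had a 95% interval from -0.38 to 0.42 (adjusted p = 0.9998 in limma, and 0.984 with the block). With the block that interval was -0.22 to 0.26. In replicate 4, Icosl was at 5.46 FPKM in the vehicle library and 5.08 FPKM after S100A8/A9. Icosl (ENSMUSG00000000732) is a forward-strand gene of chromosome 10, at 78069302 to 78083913.

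Among the ligands of the tumour necrosis factor family, Tnfsf4 was the abundant one. Tnfsf4 encodes OX40 ligand, which sustains effector and memory T cells, and was at 12.7, 11.9 and 21.2 FPKM in vehicle libraries and 14.7, 11.7 and 20.6 FPKM after S100A8/A9. Replicate 3 was high in both groups, and the ratios were 1.16, 0.984 and 0.97. The log2 difference was 0.04, with a 95% interval from -0.56 to 0.65 (adjusted p = 0.9998 in limma, and 0.942 with the block, where the interval was -0.14 to 0.23). In replicate 4 the ratio was 0.956, from 52.3 and 50.005 FPKM, with a counting interval from 0.909 to 1.01. Tnfsf4 (ENSMUSG00000026700) is a forward-strand gene of chromosome 1, at 161395409 to 161418410.

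Tnfsf9, which encodes 4-1BB ligand, a signal mainly for CD8 T cells, was near the filter. Its FPKM were 0.972, 0.734 and 1.39 in vehicle libraries and 1.28, 0.626 and 1.30 after S100A8/A9, so that 1 vehicle library and 2 S100A8/A9 libraries reached 1 FPKM. The groups overlapped, and the log2 difference of 0.02 had a 95% interval from -0.46 to 0.50 (adjusted p = 0.9998 in limma, and 0.990 with the block). With the block that interval was -0.33 to 0.37. In replicate 4, Tnfsf9 was at 2.11 and 2.04 FPKM, from 87 and 88 reads. On chromosome 17, 618 bases of the Tnfsf9 gene span (57105325 to 57107757, forward strand) overlap the predicted gene Gm11110 on the other strand. The protocol names no strand marking, so reads there cannot be assigned to a strand.

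Cd70, the ligand of CD27, was close to undetected. It was listed at 0 in 4 of the 6 libraries of the first table, namely both of replicate 2 and both of replicate 3, and at 0.455 FPKM in the vehicle library and 0.194 FPKM after S100A8/A9 in replicate 1. It failed the filter and was not tested. In replicate 4, Cd70 rested on 18 reads with vehicle (0.670 FPKM) and 23 reads with S100A8/A9 (0.818 FPKM), and the counting interval of their ratio, 0.63 to 2.4, spans 1. Cd70 (57145997 to 57149777, reverse strand) is also on chromosome 17, at higher coordinates than Tnfsf9.

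The order of mean levels was the same in both groups of replicates 1 to 3: Cd86, Tnfsf4, Cd83, Cd80, Cd40, Icosl, Tnfsf9 and Cd70. Library ranges overlapped between Cd86 and Tnfsf4, between Tnfsf4 and Cd83, and between Cd80 and Cd40, in both groups. The ranges of the other neighbours in the order did not overlap. In replicate 4 the levels stood otherwise, with Tnfsf4 and Cd83 above Cd86 in both groups and Icosl above Cd40. Because the tables were normalized separately, the levels of replicate 4 are not on one scale with those of replicates 1 to 3.

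Over the 8 members, 0 of the 7 tested were called in either direction by limma. With the group-only fit this is also the background, since 0.0% of the 11387 tested genes were called. With the block, 59 genes (0.518%) were called, 57 higher (0.501%) and 2 lower (0.0176%), and again 0 of the 7 members. That background depended on the scaling and on replicate 3: the blocked fit called 3 genes with median-of-ratios factors, 3 after quantile normalization, 0 with upper-quartile factors and 5 without replicate 3, and 0 members each time. At an unadjusted p under 0.05, 1 of 7 members (Cd40) was counted with either fit, against 3.02% of tested genes without the block and 7.97% with it. Cd40 was also the 1 member higher in all 3 pairs, a pattern seen in 19.4% of tested genes, and 0 members were lower in all 3 pairs, against 9.62% of tested genes. The median log2 difference of the 7 members was 0.04, beside 0.02 over all tested genes. Cd40 kept its direction in 21 of 21 alternative analyses, with log2 differences from 0.19 to 0.35. As its groups did not overlap, its sign could not turn when libraries were left out, and the block leaves the estimate unchanged. Those fits therefore add nothing about its direction beyond the lack of overlap. The sign of Cd80, Cd86, Cd83, Icosl, Tnfsf4 and Tnfsf9 turned in some of their alternative analyses, among them fits without 1 library, which broke the pairing.

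**Figure D2:**
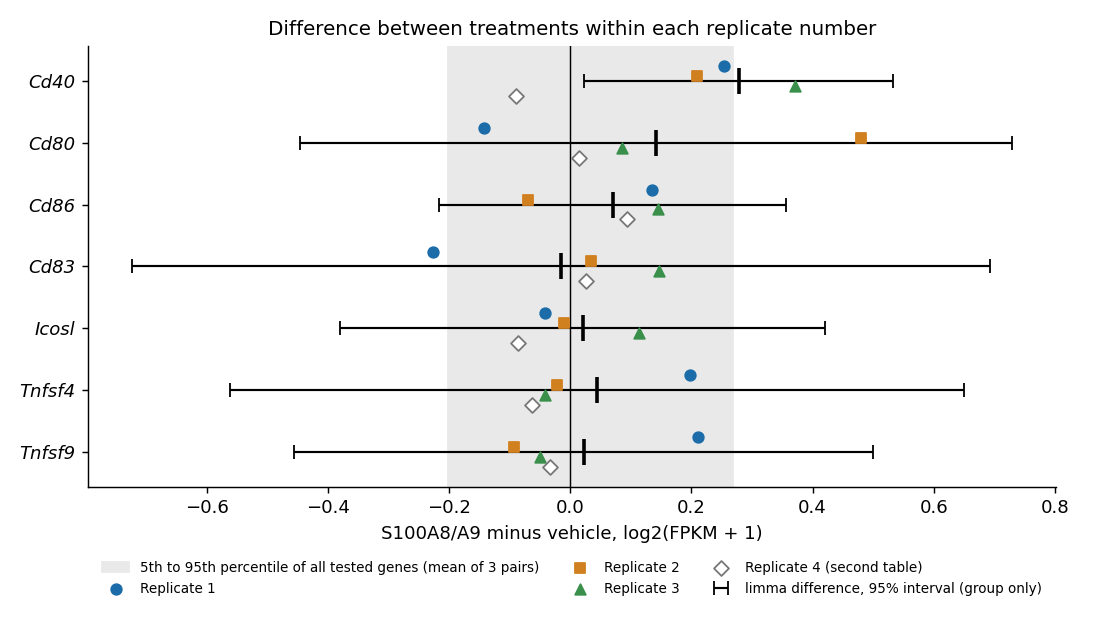
S100A8/A9 minus vehicle on the log2(FPKM + 1) scale (x axis) for the 7 tested members (y axis), with 1 symbol for each replicate number, the limma difference as a black tick with its 95% interval, and the 5th to 95th percentile of all tested genes in grey (-0.20 to 0.27). Cd40 has the 3 symbols of replicates 1 to 3 above 0 and the replicate 4 symbol below 0, and the intervals of the other 6 span 0.

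For 6 of the 7 tested members, libraries differed far more between replicate numbers than between treatments. The sum of squares of log2(FPKM + 1) over the 6 libraries was split into a part between numbers, a part between treatments and a remainder. The part between numbers was 96.9% for Tnfsf4, 96.7% for Icosl, 96.1% for Cd83, 89.8% for Tnfsf9, 80.1% for Cd80 and 77.3% for Cd86. For Cd40 it was 23.7%, and the part between treatments was 72.0%. Over all tested genes the medians were 63.6% between numbers and 6.96% between treatments, and the part between numbers exceeded 50% in 63.2% of tested genes, so a larger part between numbers was common in these libraries.

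The members did not follow the numbers alike. Averaged over both treatments, Tnfsf4 was at 13.7, 11.8 and 20.9 FPKM in numbers 1, 2 and 3, and Icosl at 2.44, 3.07 and 3.73 FPKM. Cd83 was at 16.2, 8.54 and 15.6 FPKM and Cd80 at 5.29, 4.07 and 7.23 FPKM. Replicate 2 was the lowest for 6 of the 7 tested members, and replicate 1 was the lowest for Icosl. Marker levels also differed by number. In vehicle libraries 1, 2 and 3, macrophage markers summed to 936, 641 and 489 FPKM, mature migratory dendritic cell markers to 942, 830 and 1264 FPKM, and erythroid markers to 1.60, 4.75 and 64.9 FPKM, and their part in the members' differences between numbers was not tested. What a replicate number stands for is not in the labels.

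**Figure D3:**
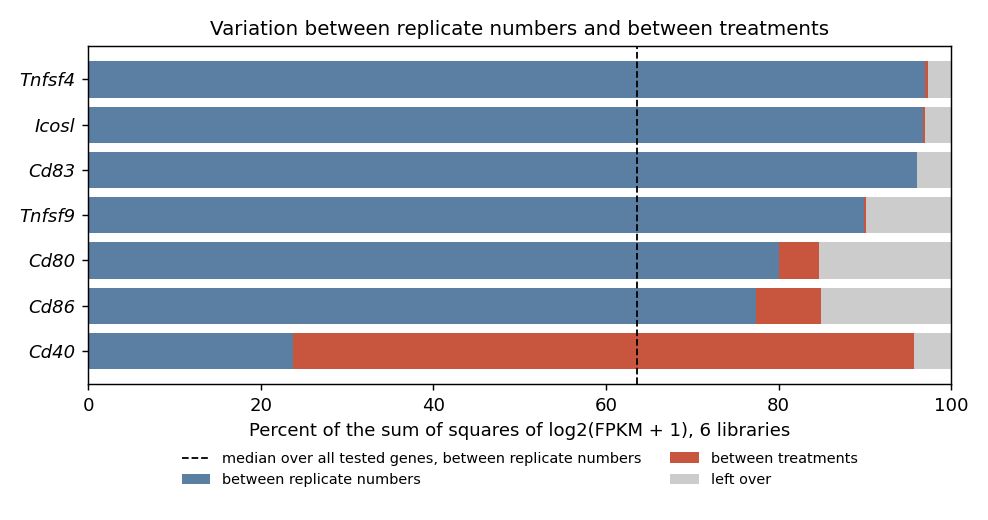
Share of the variation of each tested member over the 6 libraries of replicates 1 to 3 (x axis, percent of the sum of squares of log2(FPKM + 1)) that lay between replicate numbers, between treatments or in neither. Cd40 has 72.0% between treatments, while Tnfsf4, Icosl and Cd83 have over 96% between numbers, and the dashed line marks the median of all tested genes between numbers, 63.6%.

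The genes whose levels followed each member most closely over the same 6 libraries were found by Pearson's r of log2(FPKM + 1), among 6461 or 6462 genes averaging 5 FPKM or more. The values are a description: the 6 libraries share replicate numbers and treatments, and r of at least 0.95 was reached by 13 to 441 genes, depending on the member. Cd40 was followed by Ccrl2 (r = 0.997), Selenow (0.987) and Rspry1 (0.984). Ccrl2, a non-signalling receptor that presents the chemoattractant chemerin, was at 6.61, 5.59 and 6.53 FPKM in vehicle libraries and 9.37, 7.62 and 11.1 FPKM after S100A8/A9. Closest to Cd86 were Tbc1d8 (0.99), Ptger4 (0.989) and Tcp11l1 (0.984), and closest to Cd83 were Egln3 (0.993), Sort1 (0.993) and Cars2 (0.99). For Cd80 they were Pde4b (0.979), Fubp1 (0.973) and Rpl13a (0.973). For Icosl, with 441 genes at 0.95 or above, the leading ones were Rpl5 (0.999), AB124611 (0.999) and Gbe1 (0.997). For Tnfsf4 they were Net1 (0.99), Dlgap4 (0.985) and Samd8 (0.985), and for Tnfsf9 they were Tufm (0.987), Nqo1 (0.985) and Sirt6 (0.983).

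Signalling downstream of CD40 runs through TRAF adaptors and both arms of NF-kB. All 18 genes of this list were tested and 0 were called in either direction, with or without the block. By sign alone 16 were above 0 and 2 below, with a median log2 difference of 0.10 beside 0.02 over all tested genes, and 7 of the 18 were higher in all 3 pairs, beside the 19.4% of all tested genes given above. The median over all tested genes moved with scaling, to -0.038 with upper-quartile factors, and the signs of the list were not counted there. Nfkb1, which encodes the p105 precursor of the NF-kB subunit p50, was at 28.2, 28.1 and 30.0 FPKM in vehicle libraries and 32.3, 31.0 and 35.9 FPKM after S100A8/A9. Its groups did not overlap, which held for no other gene of the list and, in this direction, for 4.71% of all tested genes. The blocked limma fit gave Nfkb1 an adjusted p of 0.42. Tnfaip3, the feedback inhibitor A20, was at 11.5 ± 2.01 and 13.4 ± 1.76 FPKM (SD, n = 3 each, adjusted p = 0.443 in the blocked limma fit). In replicate 4, Nfkb1 went from 14 to 15.1 FPKM and Tnfaip3 from 13.3 to 17.2 FPKM.

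Of 10 other costimulatory and adhesion ligands, 8 were tested and 0 were called, with 5 above 0, 3 below 0 and a median log2 difference of 0.12. Nectin2, a ligand of the T and NK cell receptor CD226, was at 7.16, 5.69 and 6.35 FPKM in vehicle libraries and 8.95, 6.21 and 8.17 FPKM after S100A8/A9, with ratios of 1.25, 1.09 and 1.29, and the blocked limma fit gave an adjusted p of 0.511. Icam1, the adhesion ligand of LFA-1, had ratios of 1.14, 1.09 and 1.11 at 41.2 ± 7.48 and 45.8 ± 8.49 FPKM (SD, n = 3 each), and the same fit gave 0.571. Both had overlapping groups. Tnfsf14 and Tnfsf18 did not pass the filter.

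The counter-receptors that T cells carry for the members were mostly near the filter. Of 7, 5 were tested and 0 were called, with 2 above 0 and 3 below 0, and Cd40lg and Ctla4 did not pass the filter. Cd28 was at 4.34, 1.41 and 1.31 FPKM in vehicle libraries and 3.38, 1.4 and 1.06 FPKM after S100A8/A9 (adjusted p = 0.845 in the blocked limma fit), and Icos was at 1.08 ± 0.349 and 1.25 ± 0.454 FPKM (SD, n = 3 each). The 6 T cell markers summed to 4.26 to 5.81 FPKM in replicates 1 to 3. Tnfrsf9, the 4-1BB receptor of the Tnfsf9 ligand, was an exception in level, at 18.2 to 37.0 FPKM in the same libraries, well above the 0.626 to 1.39 FPKM of Tnfsf9 itself.

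**Figure D4:**
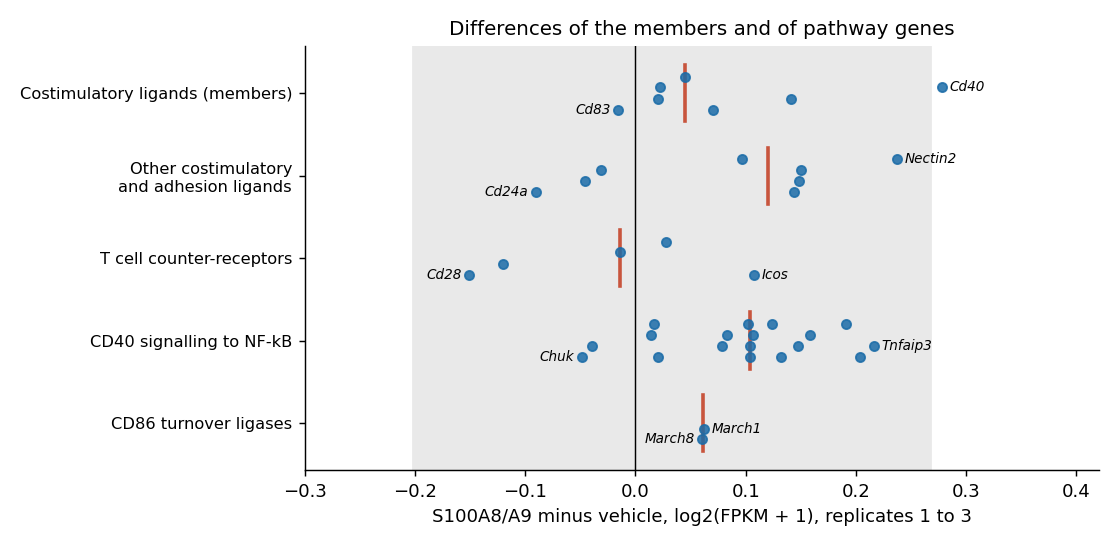
Log2 difference of S100A8/A9 minus vehicle in replicates 1 to 3 (x axis) for each tested gene (points) of the members and of 4 pathway lists (rows), with list medians as red bars and the 5th to 95th percentile of all tested genes in grey. Cd40 (0.28) lies just past the upper edge of the grey band (0.27), and 0 of the plotted genes passed the adjusted threshold.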

How the data were processed

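Poly(A) RNA for 8 libraries was fragmented, randomly primed and read on an Illumina platform (per the labels' protocols). Tools named in the submitters' processing notes are HISAT2, Subread, featureCounts and DESeq2 1.34.0, with mm10 as the build. No role or order is given there. The values the authors deposited are FPKM for Ensembl gene IDs. No label or header states this unit, which was read off the values. In replicate 4, low values (20 reads or fewer, by GENCODE exon length) came out as whole reads, to within 0.01 reads, in 98.5% and 98.8% of cases. In replicates 1 to 3, 3.70% to 4.13% of such values were whole. The 2 tables were thus made differently by the authors.

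The design named a count test if counts were found. As the files hold FPKM, limma-trend (limma 3.58.1, R 4.3.3) was run on log2(FPKM + 1) of replicates 1 to 3 with 1 term, the group. It covered the 11387 genes that reached 1 FPKM in 3 or more of 6 libraries. This scale understates fold changes where levels are low. The threshold was 0.05 on two-sided p-values adjusted by Benjamini and Hochberg over all genes. The code was tested on simulated data. Deviations from group means correlated at 0.59, 0.25 and 0.52 between libraries of the same number and at -0.53 to -0.01 between others. Deviations within a group sum to 0, so positive values between same numbers bring negative ones between others. On the positive values, numbers were taken to pair libraries, and the fit with the number as a block is given too. Members and gene lists were chosen with earlier results of these data known. Named genes were the members, the 2 genes of each list with the smallest p in the blocked fit, list genes under the filter, and for each member the 3 most correlated genes. The erythroid and other marker lists served as a check of cell type. Symbols came from a table of gene names, in which every member and list gene was found once the MARCH ligases of the list on CD86 turnover were looked up under their older symbols, and mm10 positions from GENCODE M21. Counting intervals cover counting error only. Alternatives varied the scaling, pseudocount, filter, block and libraries.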

Additional observations from a re-analysis of the deposited data

How the results depend on the processing

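Of 147 alternative values for the 7 tested members, 118 kept their direction and 29 changed sign, and each stayed above the adjusted threshold (adjusted p from 0.411 to 1). The block and the lack of a filter leave each estimate unchanged, so those values could not turn. Scalings run with the block, and all 8 libraries with the block, repeat the estimates made without it. These counts are therefore not of independent values. Cd40 never changed sign, and leaving out libraries could not have turned it, as its groups did not overlap. Leaving out libraries gave ranges of -0.12 to 0.34 for Cd80, -0.014 to 0.18 for Cd86, -0.30 to 0.25 for Cd83, -0.12 to 0.15 for Icosl, -0.16 to 0.29 for Tnfsf4 and -0.086 to 0.19 for Tnfsf9. These ranges include group-only fits without 1 library, which broke the pairing, so that differences between numbers entered the treatment difference. With the block and a whole number left out, Cd80 was from -0.028 to 0.28 and Cd83 from -0.096 to 0.0905. With upper-quartile factors, with or without the replicate block, Icosl was -0.036, Tnfsf4 -0.024 and Tnfsf9 -0.017. With quantile normalization Tnfsf4 was -0.0044, and with all 8 libraries Icosl was -0.0065, each also with the block. With the block and 1 replicate number left out, the values that changed sign were Cd80 -0.028 (without replicate 2), Cd83 0.0905, Tnfsf4 -0.032 and Tnfsf9 -0.072 (without replicate 1) and Icosl -0.026 (without replicate 3). No member and no gene of the 4 pathway lists was called in any alternative, and genes of the marker lists were not followed across alternatives. The count of called genes, 0 in the group-only fit, was 59 with the replicate block, 1 without the filter, and from 0 to 95 when libraries were left out (42, 95 and 5 without replicates 1, 2 and 3 in both groups with the block, and 1 without vehicle replicate 2). In fits added after seeing the data, the block gave 3 after quantile normalization, 3 with median-of-ratios factors and 0 with upper-quartile factors. The cause was not tested. DESeq2 was not run, as no counts were found. Tnfsf9 and Cd70 are limited by depth, with 87 and 18 reads in replicate 4 with vehicle.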

Other observations

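Tnfsf15, which encodes a ligand of death receptor 3 on T cells, had 99.4% of its variation between replicate numbers. It was at 2.67, 7.43 and 20.9 FPKM in vehicle libraries and 3.12, 8.75 and 22.0 FPKM after S100A8/A9 in replicates 1, 2 and 3, with ratios of 1.17, 1.18 and 1.06 and 0.72 as adjusted p in the blocked limma fit. In replicate 4 it was at 3.92 and 3.95 FPKM. Tnfsf14, which encodes LIGHT, a ligand of HVEM, was at 0.631, 0.703 and 0.347 FPKM in vehicle libraries and 0.427, 0.685 and 0.169 FPKM after S100A8/A9 in replicates 1 to 3. In the second table it was at 3.34 FPKM in the vehicle library and 6.21 FPKM after S100A8/A9, a ratio of 1.86 in a single pair of libraries. Both genes were named here after their values were seen.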
